A study of Homo sapiens with 12 samples.

Results

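The ends of human chromosomes hold gene-dense, GC-rich sequence that closes in tracts copied between chromosomes and then in the telomere repeat. The regions described here are those of chr1 to chr22 (hg38) whose midpoint lay within 2 Mb of a chromosome end, with only the long-arm end counted for chr13, chr14, chr15, chr21 and chr22. By this rule 7694 of the 158028 deposited regions were subtelomeric, 2892 of 63442 for the histone variant H2A.Z and 4802 of 94586 for its acetylated form, H2A.Zac, on 39 chromosome arms. The rule used position only and no measured value.

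The study mapped H2A.Z and H2A.Zac by ChIP-seq in K562 cells, an established human chronic myeloid leukemia line. In every sample the endogenous EP400 carried a degradation tag (EP400-dTAG) and was depleted with 500 nM dTAGV-1 for 24 h, while a second EP400 was expressed from the AAVS1 locus. This second EP400 was wild type (WT) in one line and lacked the part that holds TRRAP in the other (ΔTRRAP). Each line was 1 clone, so a difference between clones cannot be told apart from a difference between the EP400 forms, and the 2 replicates per mark and line had been merged before the lists were made, so no value below has a replicate error or a test.

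H2A.Z is placed in nucleosomes near transcription start sites (TSSs) and enhancers by remodeling enzymes, among them EP400, the motor subunit of the TIP60 complex. The same complex acetylates H2A.Z through the enzyme TIP60, and its largest subunit, TRRAP, is the contact for many transcription factors. Telomeres themselves consist of tandem TTAGGG repeats bound by the shelterin proteins, and the sequence just inside them is shared between many chromosomes.

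Regions were listed as lost when the signal was higher in WT, as gained when it was higher in ΔTRRAP and as unchanged otherwise. The score that divides them is a log10 likelihood ratio with a threshold of 3. Regions of a mark could overlap each other, as was the case for 25.6% of the subtelomeric H2A.Z regions and 51.6% of the H2A.Zac regions, but 0 gained regions touched a lost region of the same mark. Counts below are therefore of listed regions, which may be parts of 1 site, and their 95% Wilson intervals cover counting error only.

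Sequence repeated between or along arms is described first, because it limits how far a read can be assigned to 1 place. Runs of at least 3 tandem telomere repeat units, on either strand, were present in 7 subtelomeric H2A.Zac regions (0.146%) and in 3 H2A.Zac regions outside (0.00347%). Among H2A.Z regions the same motif was present in 0 of 2892 subtelomeric regions and in 2 outside. The 7 H2A.Zac regions comprised 4 gained, 1 lost and 2 unchanged, and 3 of them lay more than 60 kb from the end.

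Longer stretches were shared between arms. Across all H2A.Zac regions within 30 kb of an end there were 29861 distinct 100-base words, of which 4426 occurred in gained regions of at least 2 arms and 467 in gained regions of at least 4 arms. One word, given for 1q at chr1:248936855-248936954, was present unaltered in gained regions of 1q, 2q, 4q, 10q and 21q and in an unchanged region of 19q, always 18.1 to 19.6 kb from the end. Another, at chr1:248941433-248941532, was present in gained regions of 1q, 2q, 4q, 10q and 19q, 13.9 to 14.99 kb from the end. They are printed in lower case throughout because the whole word is shared.
word shared by 1q, 2q, 4q, 10q, 19q and 21q: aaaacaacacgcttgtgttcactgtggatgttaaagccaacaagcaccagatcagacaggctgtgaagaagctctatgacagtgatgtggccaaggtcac
word shared by 1q, 2q, 4q, 10q and 19q: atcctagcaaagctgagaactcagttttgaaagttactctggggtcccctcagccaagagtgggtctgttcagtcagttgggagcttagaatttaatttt
The reads were 100 bases long, so a read of such a word alone could not be given to 1 arm, and the gained regions of these arms are not independent observations.

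As a whole, the subtelomeric H2A.Z regions held 656 lost, 269 gained and 1967 unchanged regions. Lost regions made up 22.7% of them against 19.8% of all H2A.Z regions of the series, and gained regions 9.30% against 14.1%. For H2A.Zac, 1447 regions were lost, 1090 gained and 2265 unchanged, so that 30.1% were lost against 25.9% of all H2A.Zac regions and 22.7% were gained against 26.3%. The balance of the change thus lay further on the side of loss at chromosome ends, for both marks.

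Expressed as the gained share of changed regions, H2A.Z stood at 29.1% (26.2 to 32.1) near the ends and at 41.6% (40.9 to 42.3) on the rest of the autosomes. H2A.Zac stood at 43.0% (41.0 to 44.9) near the ends and at 50.5% (50.05 to 50.97) elsewhere. The neighboring band, from 2 to 10 Mb, was close to the ends, with 32.5% (30.8 to 34.3) for H2A.Z and 45.3% (44.1 to 46.5) for H2A.Zac. The intervals of the ends and of this band overlapped for both marks over all regions. How often a region changed at all differed little, at 31.98% against 34.2% for H2A.Z and 52.8% against 52.2% for H2A.Zac.

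The gained share was lower among regions with a higher likelihood ratio, which measures evidence and not the size of a change. Among subtelomeric regions with a ratio of at least 10, gains made up 12 of the 117 changed for H2A.Z (10.3%) and 198 of the 816 changed for H2A.Zac (24.3%). At the same ratio 39.6% and 41.4% were gained elsewhere. The median ratio was 6.42 for lost and 5.18 for gained H2A.Z regions, and 8.73 and 6.38 for H2A.Zac. Elsewhere these medians were 5.93 and 5.50, and 8.25 and 6.90, in the same order. Lost H2A.Z regions were also wider than gained ones, with medians of 529.5 and 405 bp, against 525 and 452 bp elsewhere.

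The 2 marks were then set against each other by position. At least 25% of the length was covered by H2A.Zac regions in 91.9% (90.8 to 92.8) of subtelomeric H2A.Z regions, against 82.2% elsewhere. In the other direction 59.7% of H2A.Zac regions were covered by H2A.Z regions, against 60.9% elsewhere. Lost H2A.Z regions lay on lost H2A.Zac regions in 77.7% of cases and gained ones on gained ones in 74.7%, against 65.1% and 65.7% elsewhere. No such coverage by any H2A.Zac region was found for 15.1% of the lost and 8.92% of the gained ones, against 27.6% and 19.2% elsewhere. The higher same-class shares at the ends thus went with more coverage, and do not by themselves show closer agreement in direction. Counted from H2A.Zac, 29.99% of the lost regions lay on lost H2A.Z regions and 14.4% of the gained ones on gained H2A.Z regions, while 52.1% of the gained ones lay on unchanged H2A.Z regions. Elsewhere these shares were 28.9%, 18.996% and 45.8%, so the gained overlap was higher at the ends counted from H2A.Z and lower counted from H2A.Zac. Where an H2A.Z region and the H2A.Zac region on it had both changed, 591 of 593 pairs had the same direction, and 10777 of 10788 did elsewhere, but the marks came from the same clones, so this is no independent repeat.

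Distance from the end was next examined in steps. For H2A.Z the gained share was 22.7% (16.1 to 31) in the first 0.25 Mb, 45.5% (37.0 to 54.3) from 0.25 to 0.5 Mb and between 25.1% and 28.6% in the steps from 0.5 to 2 Mb. For H2A.Zac it was 48.2% and 48.6% in the first pair of steps and between 39.2% and 44.3% beyond. No steady trend ran through the window, and the second step of H2A.Z stood above its neighbors with intervals that did not overlap. Beyond 10 Mb the shares were 43.1% and 51.4%.

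**Figure D1:**
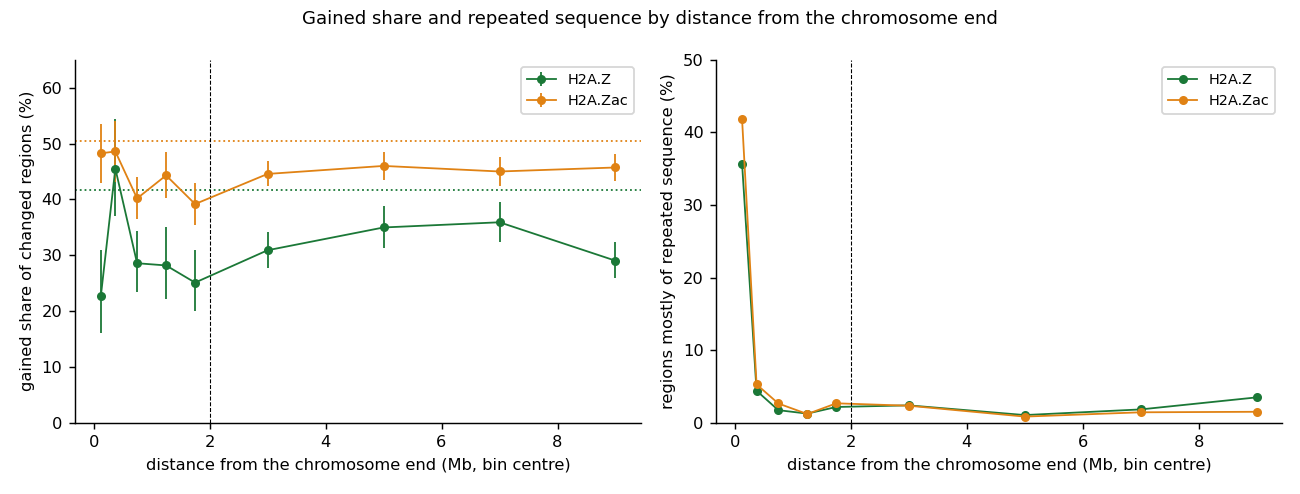
Left, gained share of changed regions (%) against distance from the chromosome end (Mb, bin centre) with 95% Wilson intervals, where dotted lines give the share on the autosomes outside the 2-Mb windows and the dashed line marks 2 Mb. Right, share of regions in which over 50% of the 100-base words occur elsewhere (%); it is 35.7% for H2A.Z and 41.8% for H2A.Zac in the first 0.25 Mb and at most 5.29% in the other bins.

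Repeated sequence was most frequent in the first step, which held 136 of the 190 repeated H2A.Z regions and 263 of the 375 repeated H2A.Zac regions. Regions of which over 50% of the 100-base words occur again in the genome made up 6.57% of subtelomeric H2A.Z and 7.81% of subtelomeric H2A.Zac regions, against 3.35% and 3.24% elsewhere. In the first 0.25 Mb these shares were 35.7% and 41.8%. Repeated regions of the window held 15 gained and 39 lost H2A.Z regions and 92 gained and 111 lost H2A.Zac regions. The gained share of the regions that were not repeated, 29.2% for H2A.Z and 42.8% for H2A.Zac, was nearly that of all subtelomeric regions.

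Within the last 30 kb, a distance chosen after the values were seen, the long and short arms differed in H2A.Zac. On the q arms there were 29 gained, 0 lost and 14 unchanged regions, with gained regions on all 10 arms that had any region there. The p arms had 6 gained, 12 lost and 8 unchanged regions, over 7 arms. Gained regions lay on 4 of these arms and lost ones on 5. Most of the lost p-arm regions lay on 4p and 16p, with 4 lost and 0 gained on each. Of the 29 gained q-arm regions, 24 were mostly repeated sequence, and of the 12 lost p-arm regions 10 were, so the number of separate sites behind these counts is not known. From 30 to 60 kb the q arms had 10 gained and 5 lost regions. H2A.Z had few regions in the last 30 kb, with 3 lost and 1 gained on p arms and 0 lost and 1 gained on q arms.

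**Figure D2:**
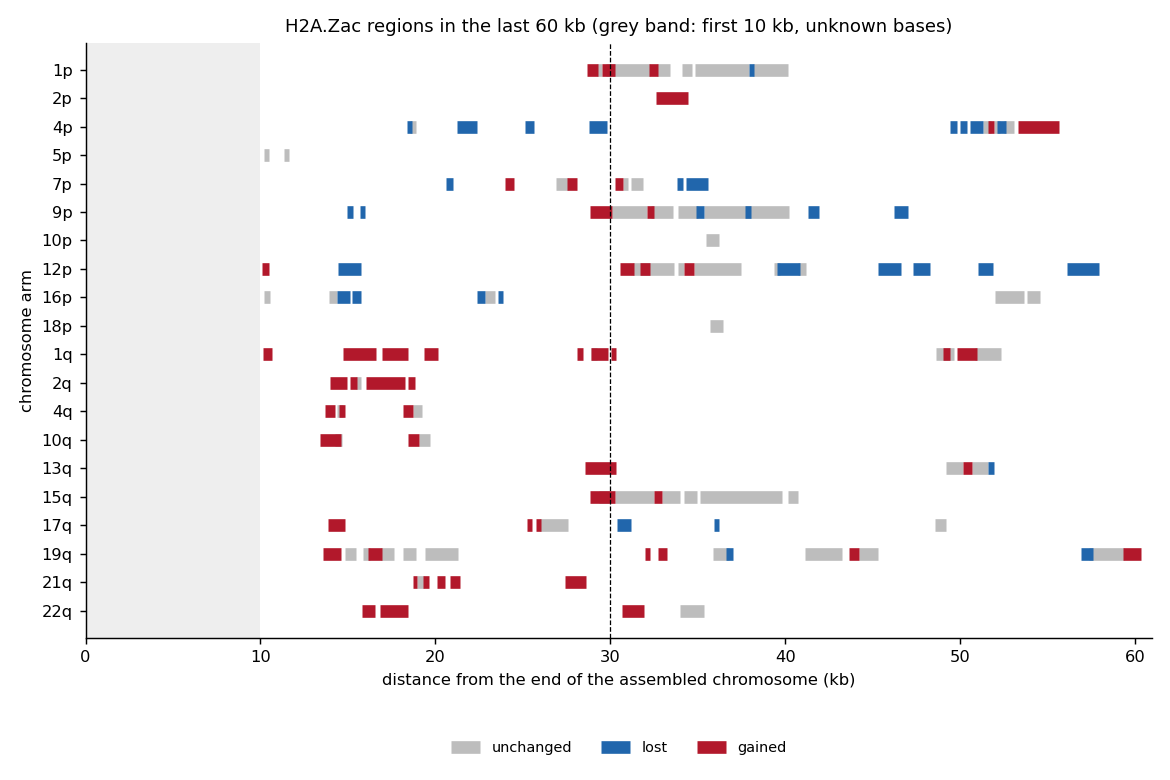
Each bar is an H2A.Zac region placed by its distance from the end of the assembled arm (kb) on the arms that have a region within 60 kb, p arms above and q arms below, with color for its class and a dashed line at 30 kb. Left of that line the q arms show 29 gained and 0 lost regions, and the p arms 6 gained and 12 lost.

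Of 16 pseudogenes of the ribosomal protein gene RPL23A within 2 Mb of an end, 8 had a gained and 1 a lost H2A.Zac region at the TSS, 2 had unchanged regions only and 5 had none. Gained H2A.Zac regions overlapped the 2-kb windows centered on the TSSs of RPL23AP25 on 1q, RPL23AP88 on 2q, RPL23AP84 on 4q, RPL23AP47 on 6q, RPL23AP60 on 10q and RPL23AP4 on 21q, with likelihood ratios of 7.76, 9.59, 8.37, 5.73, 9.39 and 8.46 for the highest of each. The others were RPL23AP24 on 1p (5.96) and RPL23AP53 on 8p (5.80). The first shared word printed above lay in gained regions of 1q, 2q, 4q, 10q and 21q. The gains at the pseudogenes of these arms are therefore not independent observations. RPL23AP87 on 17q had a lost H2A.Zac region instead (11.3). The WASH family, which encodes an endosomal actin regulator and its pseudogene copies, was gained at WASH7P (1p), WASH8P (12p) and WASH5P (19p), with ratios of 5.42, 5.42 and 5.70, and lost at WASHC1 on 9p (10.5), while the other 3 of its 7 members had no region at the TSS. Of 107 genes of the 16 duplicated families searched, 14 (13.1%) had a gained and 8 (7.48%) a lost H2A.Zac region, against 35.3% and 21.5% of all protein-coding genes of the ends. For H2A.Z, 2 (1.87%) had a gained and 3 (2.80%) a lost region, against 9.36% and 8.31%, and 77 had no region of either mark at the TSS.

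The tubulin genes TUBB8 on 10p and TUBB8B on 18p, members of these families, each carried a lost H2A.Zac region (20.8 and 10.1) of little repeated sequence. The zinc finger gene ZNF595 on 4p carried gained regions of both marks, 14.9 for H2A.Z and 16.9 for H2A.Zac, but 80.8% of the words of the H2A.Z region occur elsewhere. An H2A.Zac region at the same TSS, wholly of repeated sequence, was lost (4.33). Opposite calls thus fell side by side at this start.

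The gained share varied between arms. Over the 39 arms the gained share ran from 0% to 100% for H2A.Z, with a median of 31.8%, and from 4.35% to 100% for H2A.Zac, with a median of 44.6%. The values of 100% came from 3p and 11q, which had at most 4 changed H2A.Z regions and, on 3p, 1 changed H2A.Zac region. Among arms with at least 10 changed regions the share ran from 0% on 5p and 20q to 93.3% on 2p for H2A.Z (32 arms), and from 4.35% on 20q to 89.5% on 2p for H2A.Zac (37 arms). Over all arms it was below the share outside the windows on 26 arms for H2A.Z and on 23 for H2A.Zac. Against the next 8 Mb of their own arm, 23 arms were lower, 15 higher and 1 equal for H2A.Z, and 18 were lower and 21 higher for H2A.Zac. Across the 32 arms with at least 10 changed regions of each mark the shares of the marks had a Pearson r of 0.77 and a Spearman rho of 0.59, given as a description, since both marks share the clones and the sequence.

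**Figure D3:**
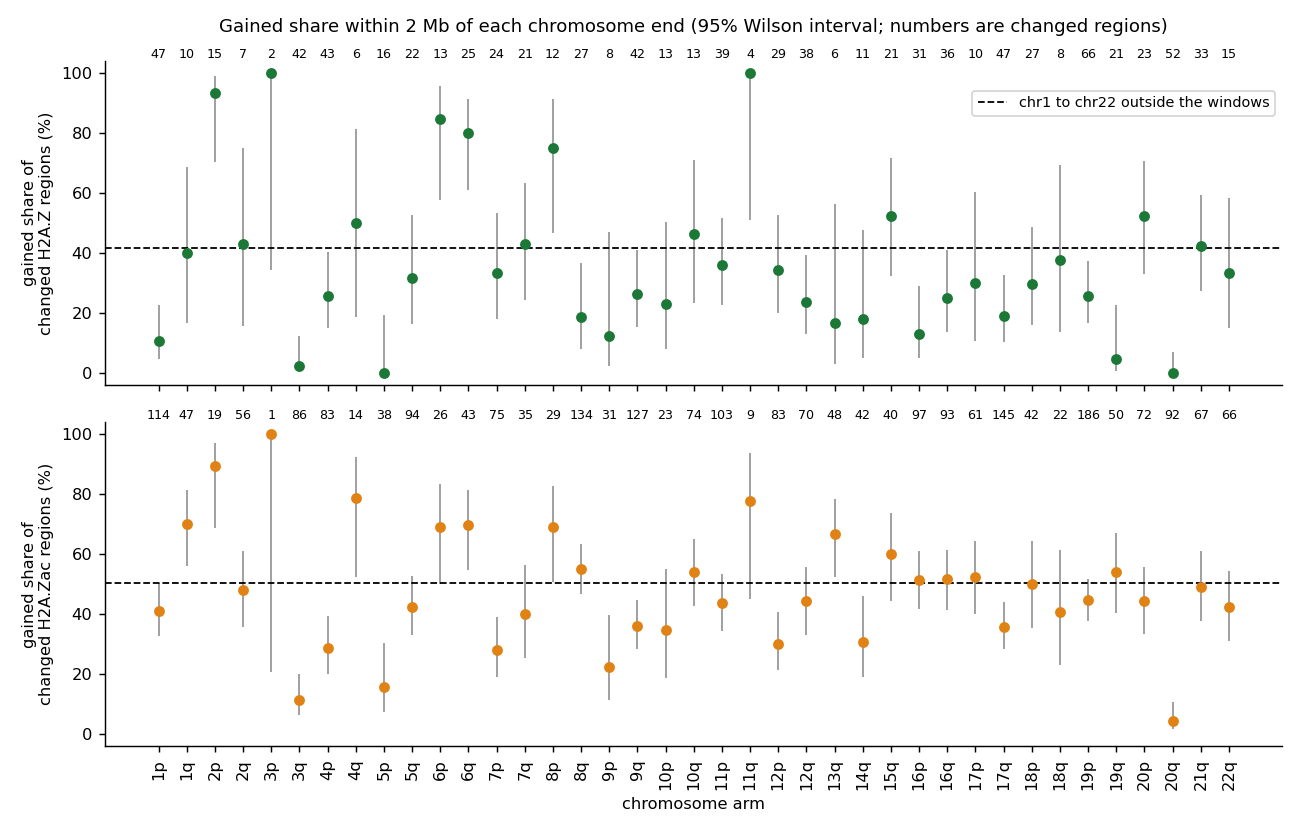
Gained share of changed regions (%) within 2 Mb of the end of each chromosome arm, H2A.Z above and H2A.Zac below, with 95% Wilson intervals and the number of changed regions over each point. The dashed line is the share outside the windows (41.6% and 50.5%); 20q, 3q and 5p lie far below it in both panels and 2p, 6p and 6q above it.

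Loss prevailed most on 20q. There 52 H2A.Z regions were lost and 0 gained, and 88 H2A.Zac regions were lost and 4 gained. The loss did not stop at 2 Mb, since the next 8 Mb had 53 lost and 0 gained H2A.Z regions and 63 lost and 23 gained H2A.Zac regions. Counted inward from the end, 270 changed H2A.Z regions in a row were lost, to 17.1 Mb, whereas the run of lost H2A.Zac regions was 49 long and ended 1.49 Mb from the end.

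Similar one-sided ends were those of 3q and 5p. On 3q, 41 H2A.Z regions were lost and 1 gained, and 76 H2A.Zac regions were lost and 10 gained, and the band to 10 Mb had 116 lost and 4 gained H2A.Z regions. On 5p, 16 H2A.Z regions were lost and 0 gained and 32 H2A.Zac regions were lost and 6 gained. A run of 44 lost H2A.Z regions reached 5.60 Mb inward on 5p. These ends thus belonged to longer stretches of the same direction. Input libraries were not analysed here, so at 20q, 3q and 5p, and equally along the one-sided H2A.Z stretch of 19q, a difference in DNA copy number between the clones cannot be told apart from a difference in the marks.

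On 19q the marks parted. There 20 H2A.Z regions were lost and 1 gained, but 23 H2A.Zac regions were lost and 27 gained, and the next 8 Mb had 245 lost and 14 gained H2A.Z regions. H2A.Zac had 317 lost and 130 gained regions in that band, so both marks leaned to loss there. On 16p, 27 H2A.Z regions were lost and 4 gained, against 47 lost and 50 gained for H2A.Zac. On 8q the counts were 22 and 5 for H2A.Z and 60 and 74 for H2A.Zac. On 13q they were 5 and 1 against 16 and 32, with an interval of 3.01 to 56.4 for the gained share of H2A.Z. In these arms H2A.Z leaned to loss and H2A.Zac leaned to gain or was even. The gained share was lower for H2A.Z than for H2A.Zac on 29 of the 39 arms.

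Other arms had more lost than gained regions in both marks. The intervals of the gained share spanned 50% on 1p for H2A.Zac (32.6 to 50.4) and on 10p for both marks. They also did for H2A.Z on 7p (18.0 to 53.3) and 12p (19.9 to 52.7). On 1p, 42 H2A.Z regions were lost and 5 gained, with 67 lost and 47 gained for H2A.Zac. On 4p, 32 were lost and 11 gained for H2A.Z, and 59 lost and 24 gained for H2A.Zac. On 17q, 38 were lost and 9 gained for H2A.Z, and 93 lost and 52 gained for H2A.Zac. The share lost of the changed regions exceeded that gained in both marks on these 3 arms. The end of 7p had 16 lost and 8 gained H2A.Z regions and 54 lost and 21 gained H2A.Zac regions. That of 12p had 19 and 10 for H2A.Z and 58 and 25 for H2A.Zac. On 9q the counts were 31 and 11 for H2A.Z and 81 and 46 for H2A.Zac. These 3 ends also had a lower gained share than the next 8 Mb of their arms in both marks. Smaller numbers were found on 10p, with 10 lost and 3 gained H2A.Z regions and 15 and 8 H2A.Zac regions. On 14q there were 9 and 2 for H2A.Z and 29 and 13 for H2A.Zac. On 9p, 7 and 1 H2A.Z regions and 24 and 7 H2A.Zac regions contrasted with 3 lost and 18 gained H2A.Z regions in the next 8 Mb.

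The opposite direction was found at the ends of 2p, 6p, 6q, 8p, 11q and 3p. On 2p, 1 H2A.Z region was lost and 14 were gained, and 2 H2A.Zac regions were lost and 17 gained, whereas the next 8 Mb of 2p had 27 lost and 14 gained H2A.Z regions. On 6p, 2 were lost and 11 gained for H2A.Z, and 8 lost and 18 gained for H2A.Zac, again with loss in the next 8 Mb (98 lost and 32 gained H2A.Z regions). On 6q, 5 were lost and 20 gained for H2A.Z, and 13 lost and 30 gained for H2A.Zac. Unlike 2p and 6p, 6q kept this direction of H2A.Z in the band, where 22 regions were lost and 77 gained. For H2A.Zac the band had 51 lost and 64 gained regions on 2p, 127 and 98 on 6p, and 47 and 72 on 6q. The end of 8p had 3 lost and 9 gained H2A.Z regions and 9 lost and 20 gained H2A.Zac regions. That of 11q had 0 and 4 for H2A.Z and 2 and 7 for H2A.Zac. The end of 3p held only 5 H2A.Z and 3 H2A.Zac regions, of which 2 and 1 were gained and 0 lost. The intervals of 8p for H2A.Z (46.8 to 91.1), of 11q for H2A.Zac (45.3 to 93.7) and of 3p for both marks spanned 50%.

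**Figure D4:**
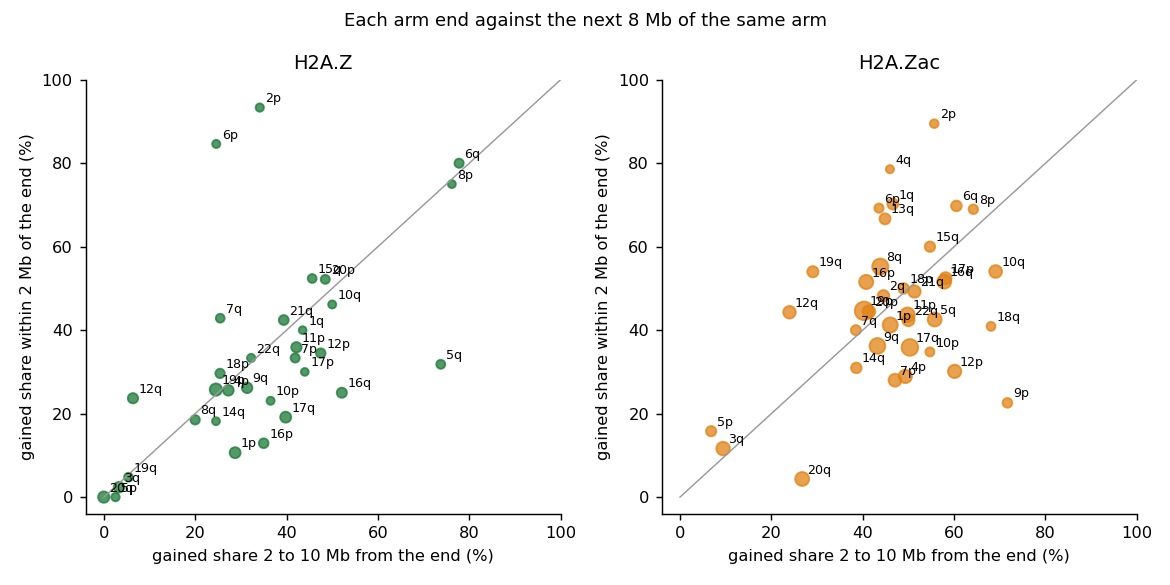
Gained share within 2 Mb of the end (%) against the gained share from 2 to 10 Mb on the same arm (%), for arms with at least 10 changed regions in both, with larger points for more changed regions and the line of equal shares. For H2A.Z, 3q, 5p, 19q and 20q sit near 0 on both axes, 2p and 6p lie far above the line and 5q lies below it.

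The ends of 1q, 4q, 15q and 10q had more gained than lost H2A.Zac regions, with nearly even H2A.Z counts. The H2A.Zac intervals of 15q (44.6 to 73.7) and 10q (42.8 to 64.9) spanned 50%. On 1q, 6 H2A.Z regions were lost and 4 gained, and 14 H2A.Zac regions were lost and 33 gained, of which the 13 outermost changed regions were all gained. On 4q, 3 and 3 H2A.Z regions and 3 and 11 H2A.Zac regions were lost and gained. On 15q, the counts were 10 and 11 for H2A.Z and 16 and 24 for H2A.Zac. On 10q they were 7 and 6 for H2A.Z and 34 and 40 for H2A.Zac. The shared words printed above lay on 1q, 4q and 10q, and also on 2q, 19q and 21q.

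Remaining ends were closer to even in H2A.Zac. Of the changed H2A.Z regions, 4 were lost and 3 gained on 2q, where H2A.Zac had 29 and 27. On 16q, 27 were lost and 9 gained for H2A.Z, and 45 and 48 for H2A.Zac. On 17p, the counts were 7 and 3 for H2A.Z and 29 and 32 for H2A.Zac. All 3 had H2A.Zac intervals that spanned 50%. On 18p, 19 H2A.Z regions were lost and 8 gained, with 21 and 21 for H2A.Zac. On 21q, 19 and 14 H2A.Z regions and 34 and 33 H2A.Zac regions were lost and gained. On 20p, 11 and 12 H2A.Z regions faced 40 and 32 H2A.Zac regions, which sets this end apart from 20q at the other end of the chromosome.

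Moderate losses closed the list. On 5q, 15 H2A.Z regions were lost and 7 gained, and 54 H2A.Zac regions were lost and 40 gained, while the band to 10 Mb had 32 lost and 90 gained H2A.Z regions. On 12q, 29 and 9 H2A.Z regions and 39 and 31 H2A.Zac regions were lost and gained, with 88 and 6 H2A.Z regions in the band. On 19p, the arm with most regions, 49 and 17 H2A.Z and 103 and 83 H2A.Zac regions were lost and gained. The end of 5q thus differed from its own band in direction, and that of 12q was less one-sided than its band. On 11p the counts were 25 and 14 for H2A.Z and 58 and 45 for H2A.Zac. On 22q they were 10 and 5, and 38 and 28. On 7q they were 12 and 9, and 21 and 14, and on 18q 5 and 3, and 13 and 9.

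The density of listed regions and their base composition differed between the ends and the rest. The ends held 38.0 H2A.Z and 63.0 H2A.Zac regions per Mb, against 21.9 and 32.3 elsewhere, ranging from 2.51 to 101.5 H2A.Z regions per Mb between arms. At least 1 TSS lay within 1 kb of 49.3% (47.5 to 51.2) of H2A.Z and 45.5% (44.1 to 46.9) of H2A.Zac regions, against 34.6% and 33.2% elsewhere. Median GC content was 61.8% and 59.8%, against 50.7% and 49.4%.

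The gained share was lower than on the rest of the autosomes at promoters and away from them. Of the TSS-proximal changed H2A.Z regions 44.8% (39.4 to 50.3) were gained near chromosome ends and 59.4% elsewhere, and of the TSS-distal ones 21.0% (17.9 to 24.4) and 35.5%. For H2A.Zac the values were 58.0% (54.9 to 61) and 64.1% at TSSs and 33.2% (30.9 to 35.6) and 44.9% away from them. In the band from 2 to 10 Mb the shares at TSSs were close to those of the ends, at 45.8% (42.2 to 49.5) for H2A.Z and 58.8% (56.7 to 60.9) for H2A.Zac. Away from TSSs the band stood higher than the ends, at 28.1% (26.2 to 30.1) and 38.98% (37.6 to 40.4), with intervals that did not overlap those of the ends. Sorted by GC content, the gained share of H2A.Z was 33.0% at the ends and 55.2% elsewhere in regions of at least 65% GC, 19.4% and 32.9% from 55 to 65%, and 29.8% and 32.7% from 45 to 55%. H2A.Zac stood at 55.6% and 65.3% in the highest GC class, at 33.7% and 48.3% in the next and at 37.0% (33.5 to 40.7) and 43.1% (42.4 to 43.8) from 45 to 55%. Below 45% GC the shares were 48.4% and 57.0% for H2A.Z and 52.8% and 57.4% for H2A.Zac. The difference was widest at 65% GC and over for H2A.Z and from 55 to 65% for H2A.Zac, and the intervals of the ends and of the rest overlapped below 55% GC for H2A.Z and below 45% GC for H2A.Zac.

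**Figure D5:**
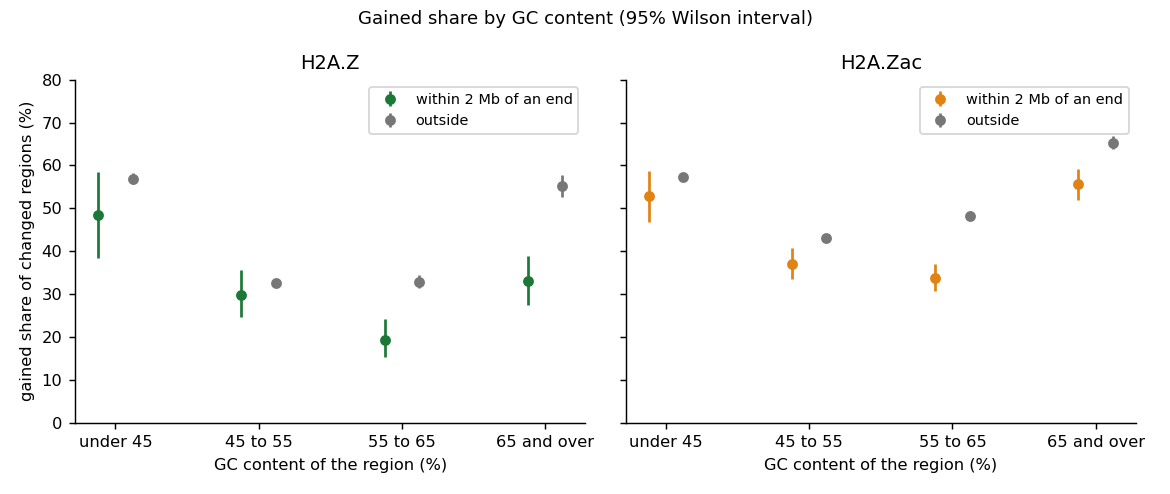
Gained share of changed regions (%) by GC content of the region (%), within 2 Mb of an end (color) and outside (grey), with 95% Wilson intervals. In all 4 GC classes the points of the chromosome ends lie below those outside for both marks, with intervals that do not overlap from 55% GC upward for H2A.Z and from 45% GC upward for H2A.Zac.

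Promoters that lost and gained the marks also differed in their CpG content. The ratio of observed to expected CpG had a median of 0.50 in lost, 0.79 in gained and 0.80 in unchanged TSS-proximal H2A.Z regions at the ends, and of 0.51, 0.75 and 0.72 for H2A.Zac. Elsewhere the H2A.Z medians were 0.37, 0.63 and 0.69, so the order of lost and gained was the same. A pair of promoters that lay mostly inside their region, chosen after their values were seen, is shown for it, each given as the 250 bases before the start of transcription on the gene's own minus strand (RefSeq, GRCh38.p14, identical to hg38 here), with each CG in capitals. PRSS57, a neutrophil serine protease gene with a lost H2A.Z region, had 12 CG at chr19:695453-695702, and all 250 bases lay in the region. NRARP, a gene induced by Notch signaling with a gained H2A.Z region, had 39 CG at chr9:137302272-137302521, and 241 of the bases lay in the region. At its TSS the H2A.Zac regions went both ways, with gained and lost ones.
PRSS57 lost: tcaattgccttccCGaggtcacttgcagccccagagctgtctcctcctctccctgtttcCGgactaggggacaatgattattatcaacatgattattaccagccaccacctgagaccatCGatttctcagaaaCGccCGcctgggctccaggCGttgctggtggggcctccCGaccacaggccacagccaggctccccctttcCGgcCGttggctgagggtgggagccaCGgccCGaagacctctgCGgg
NRARP gained: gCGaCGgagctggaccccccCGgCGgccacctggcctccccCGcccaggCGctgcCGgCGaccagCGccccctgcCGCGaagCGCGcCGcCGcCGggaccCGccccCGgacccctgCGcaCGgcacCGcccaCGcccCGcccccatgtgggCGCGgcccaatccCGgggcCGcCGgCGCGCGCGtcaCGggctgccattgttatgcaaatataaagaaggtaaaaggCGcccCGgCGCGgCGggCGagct
Single promoters also went the other way. ADAP1, with 219 of its 250 bases in a lost H2A.Zac region, had 41 CG, and ZNF605, with all 250 in a gained one, had 15.

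The promoter regions with the highest likelihood ratios are named by rank and serve as description only. They were assigned to genes by GENCODE starts. For CHFR, TCEA2, UTF1, CBFA2T3, CRIP2 and TEDC1, 0 of the 250 bases before the RefSeq start lay in the named region. Lost H2A.Z regions were led by GATA5 on 20q (19.2), which encodes a transcription factor of heart and gut, by the myeloid granule protease genes ELANE (18.5) and PRSS57 (18.1) on 19p, and by the region between TCEA2, a transcription elongation factor, and SOX18, a factor of vessel development, on 20q (15.6). SERPINF1 on 17p (15.1), which had H2A.Zac regions in both directions at its TSS, and ANO9 on 11p (13.9) followed. For H2A.Zac the loss was again highest at GATA5 (83.6) and ELANE (68.5), followed by ADAP1 (54.9), UTF1 (50.8), GPR132 (42.9) and KISS1R (41.2).

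Gained H2A.Zac regions were led by a region at the GENCODE starts of CHFR, a mitotic checkpoint ubiquitin ligase, and ZNF605 on 12q (46.2), while the RefSeq start of CHFR lay outside it. UPF3A on 13q (20.5), a factor of nonsense-mediated decay, TDRP on 8p (19.7), FKBP1A on 20p (18.5), which encodes the rapamycin-binding protein FKBP12, CRIP2 (18.1) and TEDC1 (17.9) on 14q came next. TEDC1 also had a lost H2A.Zac region at its TSS. After ZNF595, gained H2A.Z regions were highest at CBFA2T3 on 16q (9.03), a corepressor of blood cell development, the zinc finger factor gene KLF16 on 19p (8.62), NRARP on 9q (7.88), the replication licensing gene CDT1 (7.51) and PLPPR3 (7.35). Each of these H2A.Z values was below that of the sixth lost region.

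All protein-coding genes of the ends gave the background for gene lists. Of 1239 such genes, 103 (8.31%) had a lost and 116 (9.36%) a gained H2A.Z region at the TSS, against 6.82% and 13.4% of the 17872 genes elsewhere. For H2A.Zac 267 (21.5%) had a lost and 437 (35.3%) a gained region, against 16.9% and 34.9%. Counted over all genes, with or without a region, H2A.Zac gains at promoters were thus as common near the ends as elsewhere. An H2A.Zac region of any class lay at 70.5% of the genes of the ends and at 62.4% of those elsewhere. The equal share therefore does not hold for genes that had a region. Unchanged regions lay at 777 (62.7%) of the 1239 genes for H2A.Z and at 773 (62.4%) for H2A.Zac. A gene named below for a lost or gained region may therefore also carry an unchanged region of that mark. The most frequent changed state was an H2A.Zac gain on unchanged H2A.Z, at 271 genes. Both marks were gained at 82 genes and lost at 79.

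The alpha-globin cluster lies at the end of 16p and encodes subunits of hemoglobin, which K562 cells can make. Of its 13 listed genes and neighbors, 5 (38.5%) had a lost and 0 a gained H2A.Z region, against 8.31% and 9.36% of all protein-coding genes of the ends. For H2A.Zac 4 (30.8%) had a lost and 4 (30.8%) a gained region, against 21.5% and 35.3%. Unchanged regions also lay at the TSSs of 12 of the 13 genes for H2A.Z and of all 13 for H2A.Zac. Losses fell on the globin genes HBZ, HBA2, HBA1 and HBQ1 and on the splicing factor gene LUC7L. The embryonic gene HBZ had a lost region of H2A.Z (3.69) but not of H2A.Zac. The adult genes HBA2 and HBA1 had lost regions of H2A.Z (5.50 and 5.44) and of H2A.Zac (4.58 and 6.73). HBQ1 had lost regions of both marks (7.04 and 8.53 for the highest of each). Reads of HBA1 and HBA2 are partly shared, since 88.3% and 55.7% of the words of their H2A.Z regions occur elsewhere. H2A.Zac was gained at the flanking genes RHBDF1 and MPG (7.28, a region shared by both), NPRL3 (5.87), which hosts the cluster's enhancers, and FAM234A (10.4).

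EP400 itself lies near the end of 12q. Its promoter carried a gained H2A.Z region (4.74) and a gained H2A.Zac region (11.2). Among the 16 listed genes of this neighborhood 12 (75%) had a gained and 3 (18.8%) a lost H2A.Zac region. Of all protein-coding genes of the ends 35.3% and 21.5% did. For H2A.Z 4 (25%) had a gained and 1 (6.25%) a lost region, against 9.36% and 8.31%. The list, chosen with earlier results known, held 16 of the 26 protein-coding genes of the 12q end. That end as a whole had 39 lost and 31 gained H2A.Zac regions. Gains included PUS1, a pseudouridine synthase (4.98 for H2A.Zac), POLE, the catalytic subunit of a replicative polymerase (4.10), ANKLE2 (8.31), ZNF84 (12.7), ZNF140 (6.75) and ZNF10 (5.17). ZNF268, the outermost gene of this list, had lost regions of both marks (5.46 and 6.37) beside unchanged regions of both at the same TSS (0.84 and 1.14). Unchanged regions lay at 13 of the 16 genes for H2A.Z and at 13 for H2A.Zac. FBRSL1 and GOLGA3 each had regions in both directions.

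At the end of 20q, 12 of 29 listed genes (41.4%) had a lost and 0 a gained H2A.Z region. For H2A.Zac 16 (55.2%) had a lost and 0 a gained region. Of all protein-coding genes of the ends, 8.31% had a lost and 9.36% a gained H2A.Z region, and 21.5% and 35.3% for H2A.Zac. The list held 29 of the 52 protein-coding genes of the 20q end. Unchanged regions lay at 20 of the 29 genes for H2A.Z and at 17 for H2A.Zac. The highest H2A.Zac ratios of this list were at PTK6, an epithelial tyrosine kinase (34.4), SLC17A9, a nucleotide transporter (20.3), and the SOX18 and TCEA2 start (18.0). Housekeeping genes of the list such as YTHDF1, a reader of modified RNA, and ARFGAP1 lost H2A.Z (4.17 and 3.94) with no changed H2A.Zac region. At the end of 19q the 16 genes of the list had 0 changed H2A.Z regions at their TSSs, with 9 genes at unchanged regions only and 7 at none, but of all 78 protein-coding genes of this end 11 had a lost and 1 a gained H2A.Z region. Within the list H2A.Zac was gained at ZNF606 (8.95), ZNF544 (4.94), UBE2M (6.31) and MZF1 (8.68) and lost at genes including SLC27A5 (6.03) and TRIM28 (5.47).

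Genes of telomere maintenance, and those of the interferon response with the IFITM family, completed the lists. TERT, the reverse transcriptase of telomerase, near the end of 5p, had a lost H2A.Zac region (10.8) and RTEL1, a helicase that unwinds telomere loops, on 20q, had another (7.35). The H2A.Z region at the TSS of RTEL1 was unchanged, and TERT had no listed H2A.Z region there. Both lie on ends where loss prevailed. Among 7 genes of the interferon response or the IFITM family, ISG15 on 1p had lost regions of both marks (7.50 for H2A.Z and 17.1 for H2A.Zac). On 11p, IFITM1 gained both (5.49 and 10.2) and IFITM3 gained H2A.Zac (13.3), IFITM5 lost H2A.Zac (9.80), and IRF7, a transcription factor, had regions in both directions (3.48 gained and 6.44 lost). Over 50% of the words of the IFITM1 regions occur elsewhere.

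On either side of the 2-Mb border, 35.3% of H2A.Z regions had changed from 1.5 to 2 Mb and 35.9% from 2 to 4 Mb. Of the 39 regions just inside 2 Mb, 1 per arm, 8 were lost, 4 gained and 27 unchanged for H2A.Z and 13, 10 and 16 for H2A.Zac. Just outside, 3, 1 and 35 H2A.Z and 12, 9 and 18 H2A.Zac regions fell into these classes.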

How the data were processed

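ChIP-seq reads (paired, 100 bases) had been aligned by the authors to hg38, and MACS2 had compared the merged replicates of WT and ΔTRRAP for each mark, giving the 3 deposited lists per mark. Per the submitters' processing notes the tools were Bowtie2 2.4.5, MACS2 2.2.7.1, bedtools 2.30.0 and deepTools 3.5.1. The deposited score of a region is its log10 likelihood ratio, with a threshold of 3, and regions had been filtered for reproducible peaks (IDR of at most 0.05). Library totals and input libraries were not analysed here, so the depth behind each region is unknown. Mappability was not filtered in the present analysis.

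Regions were assigned to arms by midpoint (Python 3.11.15, pandas 2.3.3, numpy 2.4.6). A region was TSS-proximal if it overlapped a 2-kb window centered on a GENCODE release 44 gene TSS. Marks were joined at 25% coverage. A region was called repeated when over 50% of its 100-base words occurred again in hg38, on either strand. Intervals are 95% Wilson intervals (scipy 1.17.1). No test was possible with merged replicates. Overlap, TSS and arm code was checked against bedtools 2.31.1 and simulated regions, with 0 differences over 2892, 2892 and 1950 regions.

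Named genes were the most distal region of each arm, the 6 TSS-proximal regions with the highest ratio per mark and direction (at most 2 per arm), and 6 gene lists with 16 duplicated families. Members and lists were chosen with earlier results of these data known. Alternatives were the window size, the overlap rule, base pairs, merging, width, the ratio, repeated sequence, TSS definition, coverage and leaving out each arm. A gene of the 19q list and some sequences are not reported here.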

Additional observations from a re-analysis of the deposited data

How the results depend on the processing

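All regions come from 1 comparison of merged replicates of 1 clone per line, so no alternative measures the spread between replicates, and no paired analysis was possible because no value per replicate was used. Of 46 alternatives that did not leave out an arm, 25 stayed within the 95% interval of the reported value and 21 did not, while none turned a gained share past 50%. The gained share of changed H2A.Z regions was 25.4% by base pairs, 23.2% in regions of at least 500 bp, 23.8% and 10.3% at a likelihood ratio of at least 5 and 10, and 33.6% without the ends of 3q, 5p, 19q and 20q, an alternative chosen after seeing the data. For H2A.Zac the same alternatives gave 39.5%, 39.6%, 39.04%, 24.3% and 45.9%. Leaving out the same arms also raised the share farther in. For H2A.Z it was then 36.7% from 2 to 4 Mb and 44.8% beyond 10 Mb, and for H2A.Zac 48.6% and 52.4%. The 33.6% and 45.9% are therefore not to be set against the shares of all arms. The changed share of H2A.Z regions was 27.2% by base pairs, 34.4% after merging within 1 kb and 25.2% from 500 bp, and that of H2A.Zac 50.6%, 56.2% and 50.4%. The TSS-proximal share was 55.9% with 2 kb to each side and 37.6% with protein-coding TSSs for H2A.Z, and 53.3% and 33.5% for H2A.Zac. At 50% coverage 90.7% of H2A.Z regions lay on H2A.Zac regions. Leaving out 1 arm at a time gave gained shares of 27.7% (without 6q) to 30.8% (without 20q) for H2A.Z and 42.3% (without 8q) to 44.4% (without 20q) for H2A.Zac, changed shares of 31.4% to 32.6% and 52.5% to 53.3%, TSS-proximal shares of 48.4% to 49.96% and 44.6% to 46.3%, and a coverage of 91.5% to 92.4%. Windows of 1, 3 and 5 Mb gave gained shares within the reported intervals.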

Other observations

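The outermost listed region of each of the 39 arms was gained on 9, lost on 6 and unchanged on 24 for H2A.Z, and gained on 15, lost on 10 and unchanged on 14 for H2A.Zac. It lay at a median of 66.1 kb from the end for H2A.Z and 36.1 kb for H2A.Zac, and was mostly repeated sequence on 21 and 24 arms. On 2p the most distal H2A.Zac region, near FAM110C, was gained with a likelihood ratio of 32.6 at 33.5 kb from the end, in sequence with 0% of repeated words, and the H2A.Z region on it was gained as well (7.21). On 20q the most distal H2A.Zac region was lost (44.6) at 112 kb. On 14q, with MIR5195 as the nearest gene, the most distal regions of both marks were lost (7.59 for H2A.Z and 25.7 for H2A.Zac) at 199 kb. On 16p the most distal region of each mark, near DDX11L16 and 10.3 to 10.4 kb from the end, was unchanged.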
